A study of Caenorhabditis elegans with 12 samples.

Results

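The pooled arrays of the first hours after a shift of wild-type Caenorhabditis elegans adults from 23 °C to 17 °C were compared with the arrays made just before it. Of the 12 Affymetrix arrays of the series, 8 entered the comparison. The 2 arrays at 1 h and the 2 at 2 h formed an early group of 4, which was set against the 4 arrays at 0 h, and the 4 arrays at 4 h were left out. Of the 22548 probe sets, sets of short DNA probes that together report on 1 transcript, the 20766 with a single gene symbol were described. They cover 17118 genes, and where several probe sets named a gene, the one brightest on average over the 8 arrays stood for it.

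All groups were whole-body total RNA of synchronized adults of the strain N2 Bristol with the wild-type genotype. Animals were raised from embryos for 2.5 days at 23 °C and, as adults, were moved to 17 °C, so the 0 h group is of animals at 23 °C and the 1 h and 2 h groups had spent that time at 17 °C. No group stayed at 23 °C for the same hours, and time and handling cannot be told apart from temperature. Whether replicates are separate cultures is not stated in the labels, so p-values measure only the spread between these samples, which may be technical. In RNA of whole animals, fewer cells of a type and less RNA per cell cannot be told apart. Values are log2 signals, and a difference of 1 is a 2-fold difference in signal.

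A nematode has the temperature of its surroundings, so a cooler plate slows its chemistry and stiffens its membranes. Heat-shock factor and the chaperones it controls are tied to warmth, and desaturases such as fat-7 put double bonds into membrane lipids and are known for their role in the cold. In C. elegans, the bZIP transcription factor zip-10 and cathepsin-like proteases under its control are known from animals returned to warmth after severe cold, a harsher treatment than the mild shift used here. The intestine also secretes lysozymes, C-type lectins and other small proteins that act in defence, and the AFD neurons sense temperature through receptor guanylyl cyclases, encoded by gcy-23, gcy-18 and gcy-8.

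The adult, whole-animal label was matched by its markers. The yolk protein gene vit-6, which the adult intestine expresses, had means of 13.90, 13.87 and 13.86 at 0, 1 and 2 h, and the body wall myosin heavy chain gene unc-54 had 10.11, 10.39 and 10.46. The 8 arrays had medians of 5.5 to 5.57, and lower quartiles of 3.56 to 3.64. Over 8 pairs of arrays from a single time, differences had a standard deviation of 0.197 to 0.259. The first principal component held 31.5% of the variance and placed the 0 h arrays from -13.2 to -5.56. It placed the 1 h arrays at -5.99 (replicate 1) and 12.2 (replicate 2) and the 2 h arrays at 7.74 and 27.6. Replicate 1 at 1 h thus lay within the range of the 0 h arrays, and the counts over all probe sets are also given without it. All early arrays carry the replicate numbers 1 and 2, while the 0 h arrays carry 1 to 4.

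**Figure D1:**
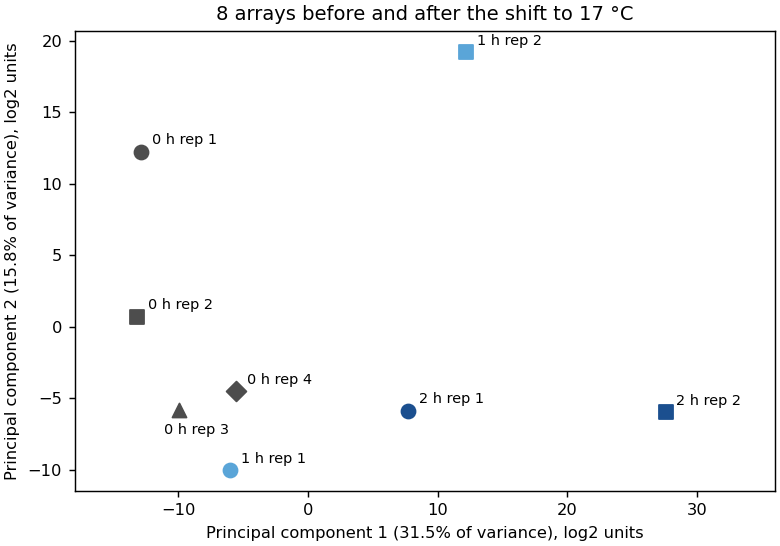
The first principal components (horizontal, 31.5% of the variance; vertical, 15.8%) of the 8 arrays over 22548 probe sets, in log2 units. Grey marks are 0 h, light blue 1 h and dark blue 2 h, and the shape gives the replicate number; replicate 1 at 1 h (-5.99) lies among the 0 h arrays on the horizontal axis, and replicate 2 at 2 h (27.6) lies farthest from them.

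With the 1 h and 2 h arrays pooled as 1 group, 0 of 20766 probe sets passed an adjusted p of 0.05 in limma (higher 0%, lower 0%), and the smallest adjusted p was 0.0681. At an unadjusted p under 0.05 there were 2263 probe sets (10.9%), 1274 higher (6.14%) and 989 lower (4.76%) in the early arrays. After centring each array on its median the split was 968 higher and 1435 lower, so that 40.3% of them were higher, against 56.3% as deposited. Without replicate 1 at 1 h there were 1574 higher and 1304 lower. In genes these were 1845 of 17118 (10.8%), 985 higher (5.75%) and 860 lower (5.02%). By sign alone, 7972 genes lay above 0 and 9146 below. The counts of gene lists given later are to be set beside these. The 4 early arrays lay outside the range of the 4 arrays at 0 h in 1278 probe sets (6.15%), above it in 576 (2.77%) and below it in 702 (3.38%). In genes these were 1059 (6.19%), above it in 452 (2.64%) and below it in 607 (3.55%). Among the 452, the median difference was 0.30, and 57 were at least 1.5-fold and 13 at least 2-fold higher. Among the 607, the median size was 0.21, and 16 were at least 1.5-fold and 1 at least 2-fold lower. Separated genes lower in the early arrays were thus more numerous and smaller in size than those higher.

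The early group pools 2 times. The 2 h mean lay farther from 0 h than the 1 h mean in 69.2% of the genes separated upward and 66.1% of those separated downward, and in 57.7% of all genes. When each time had its own mean and the average of the 1 h and 2 h differences was tested, so that the step from 1 h to 2 h no longer counted as spread, 70 probe sets passed (0.337%), 44 higher (0.212%) and 26 lower (0.125%). They were the probe sets of 63 genes (0.368%), 40 that rose and 23 that fell in that fit. Of the 63, 56 had groups that did not overlap and 57 had a 2 h mean farther from 0 h than the 1 h mean, and their sizes ran from 0.43 to 1.51 with a median of 0.75. Their adjusted p in the pooled fit ran from 0.0681 to 0.351. Since none passed there, the calls favour genes with a step between 1 h and 2 h. The counts of 56 and 57 thus follow in part from how the genes were called. Here "passed" refers to the pooled fit unless the fit with 1 mean per time is named.

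The calls depend on single arrays. Without replicate 1 at 1 h the pooled fit called 113 probe sets higher and 30 lower, without replicate 4 at 0 h it called 2 higher and 0 lower, and without any other single array it called 0. The fit with 1 mean per time called 3 to 135 probe sets without a single array, fewest without replicate 2 at 0 h and most without replicate 1 at 2 h. Of its 63 genes, only K02E7.6 and Y6D1A.2 were called in 8 of the 8 fits that each left out 1 array. The genes btb-3, math-24, dhs-7, cest-1.2, try-8, F31D4.8, K02C4.2, T19H12.3 and Y43F8B.2 were called in 0 of the 8. Among those called in only 1 of the 8 were zip-10, smd-1, pkg-2, ugt-63 and fbxa-98. With replicates 1 and 2 alone at 0 h, which carry the numbers of the early arrays, either fit called 1 probe set higher and 0 lower.

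**Figure D2:**
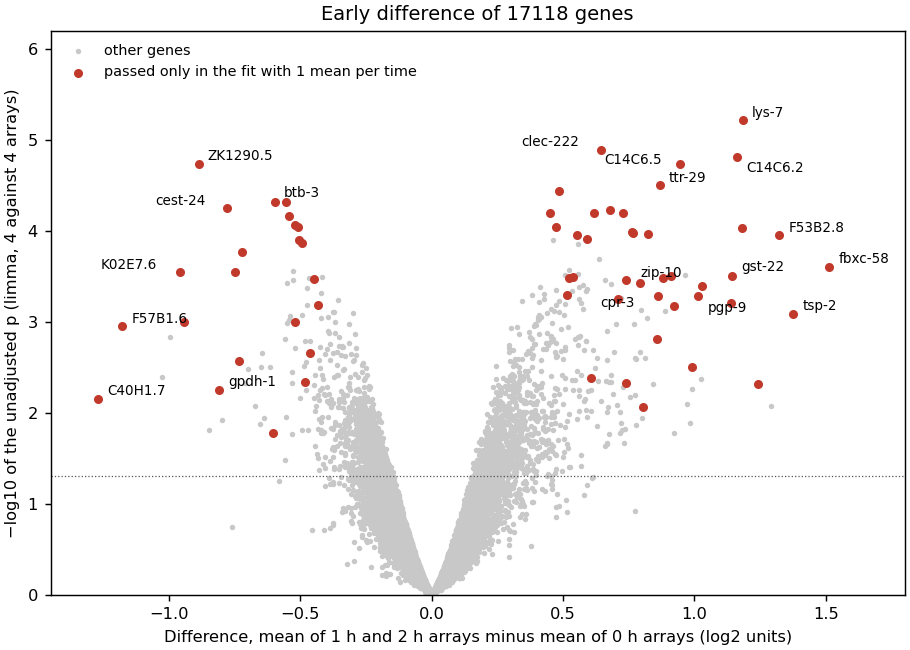
Difference between the early and the 0 h means in log2 units (horizontal) against −log10 of the unadjusted limma p (vertical) for 17118 genes. Red points are the 63 genes that passed in the fit with 1 mean per time and the dotted line is an unadjusted p of 0.05; 40 red points lie to the right of 0 and 23 to the left, and 0 genes passed in the pooled fit.

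The genes with the smallest p in each direction and, in each gene list, the member with the smallest p were named by rule, with a set of temperature, lipid and sensory genes. The other genes were chosen after their values were seen. The 5 smallest p-values of genes higher in the early arrays belonged to the lysozyme gene lys-7, the C-type lectin gene clec-222, the genes C14C6.2 and C14C6.5, and the transthyretin-like gene ttr-29. Those of genes lower belonged to ZK1290.5, E01G4.3, the BTB-domain gene btb-3, the carboxylesterase-related gene cest-24 and F21C10.10.

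Lysozymes break bacterial cell walls, and lys-7 had the smallest p of all 17118 genes. A probe set shared by the HSP70-family genes F44E5.5 and F44E5.4, which was lower and is described below, stands outside these genes. Its limma p was smaller still (4.3e-06, against 6.0e-06 for lys-7). The signal of lys-7 was 7.83, 8.08, 8.41 and 8.59 at 0 h, 9.32 and 9.33 at 1 h and 9.61 and 9.39 at 2 h. Every early array lay above every 0 h array, and the 1 h arrays were already near the 2 h level. The means were 8.22 ± 0.34 at 0 h and 9.41 ± 0.14 in the early arrays (SD, n = 4 each), or 9.32 at 1 h and 9.50 at 2 h, a pooled difference of 1.18 (SE 0.15), 2.27-fold, with adjusted p = 0.0681 in limma. In the fit with 1 mean per time the adjusted p was 0.0145. The probe set of lys-7 is of the type treated here as cross-hybridising, so it may also read related genes.

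The lectin gene clec-222 had 8.80, 8.69, 8.84 and 9.05 at 0 h, 9.47 and 9.55 at 1 h and 9.52 and 9.42 at 2 h. The groups did not overlap, and the early arrays varied less (SD 0.06) than the 0 h arrays (SD 0.15). Its means were 9.51 at 1 h and 9.47 at 2 h, and its pooled difference was 0.64 (SE 0.09), 1.56-fold, with adjusted p = 0.0684 in limma. With 1 mean per time its adjusted p was 0.0256. The lectin gene clec-223 lay in the same direction, with means of 6.56, 7.16 and 7.14 at 0, 1 and 2 h and a difference of 0.59 (SE 0.12), but missed the threshold in both fits (limma adjusted p = 0.128 and 0.0969). The lectin gene clec-57 went the other way, from 5.20, 4.57 and 4.78, a difference of -0.53, SE 0.10 (adjusted p = 0.12 and 0.0572). In clec-223 all early arrays lay above the 0 h arrays, and in clec-57 all lay below. A second, dim probe set of clec-57 differed by -0.22, with overlapping groups.

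The genes C14C6.2 and C14C6.5 lie near each other on their chromosome, with 6 coding genes between them. C14C6.2 had 7.29, 7.44, 7.06 and 7.55 at 0 h, 8.13 and 8.69 at 1 h and 8.29 and 8.87 at 2 h, and C14C6.5 had 6.5, 6.33, 6.77 and 6.78 at 0 h, 7.81 and 7.24 at 1 h and 7.57 and 7.55 at 2 h. In both, the early arrays were all above the 0 h arrays. C14C6.2 had means of 7.33 ± 0.21 at 0 h and 8.50 ± 0.34 in the early arrays (SD, n = 4 each), with 8.41 at 1 h and 8.58 at 2 h and a difference of 1.16 (SE 0.16), 2.24-fold. C14C6.5 had means of 6.60 ± 0.22 at 0 h and 7.54 ± 0.23 in the early arrays (SD, n = 4 each), with 7.52 at 1 h and 7.56 at 2 h and a difference of 0.95 (SE 0.13), 1.93-fold. The limma adjusted p was 0.0684 for each in the pooled fit and 0.024 and 0.0261 with 1 mean per time. A second probe set of each gene lay in the same direction, by 0.87 for C14C6.2 and 0.56 for C14C6.5. The brighter set of C14C6.5 and the second set of C14C6.2 are of the type treated here as cross-hybridising. The other set of each gene is not.

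The transthyretin-like genes encode a nematode family of small secreted proteins. The member ttr-29 had 3.76, 4.05, 3.73 and 3.77 at 0 h, 4.67 and 4.32 at 1 h and 4.87 and 4.91 at 2 h. All early arrays lay above the 0 h arrays, with the 2 h arrays highest. Its difference was 0.87, SE 0.13 (adjusted p = 0.0783, and 0.0138 with 1 mean per time), with means of 4.50 at 1 h and 4.89 at 2 h. Its 0 h mean of 3.83 was close to the lower quartile, and without a measure of background the size of such a difference is uncertain.

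Among the genes lower after the shift, ZK1290.5 had 5.74, 5.76, 5.96 and 5.56 at 0 h, 5.12 and 4.94 at 1 h and 4.54 and 4.87 at 2 h. Every early array lay below every 0 h array. The means were 5.76 ± 0.16 at 0 h and 4.87 ± 0.25 in the early arrays (SD, n = 4 each), or 5.03 at 1 h and 4.70 at 2 h, and the difference was -0.89, SE 0.12 (limma adjusted p = 0.0684, and 0.0138 with 1 mean per time). The gene cest-24 had 4.83, 4.88, 4.84 and 4.86 at 0 h, 4.21 and 4.35 at 1 h and 3.68 and 4.05 at 2 h. Its 0 h arrays lay within a narrow band (SD 0.02), and its 2 h arrays were lowest. The difference was -0.78 (SE 0.12), with means of 4.28 at 1 h and 3.86 at 2 h and adjusted p = 0.0798 (and 0.0138).

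The BTB-domain gene btb-3 had 6.33, 6.05, 5.96 and 5.95 at 0 h, 5.38 and 5.49 at 1 h and 5.49 and 5.54 at 2 h. Its 1 h and 2 h arrays were at about 1 level, all below the 0 h arrays, with a difference of -0.60, SE 0.09 (means of 5.44 at 1 h and 5.52 at 2 h, adjusted p = 0.0798, and 0.0347 with 1 mean per time). F21C10.10 had 8.34, 8.23, 8.26 and 8.34 at 0 h, 7.89 and 7.89 at 1 h and 7.61 and 7.62 at 2 h. Here the groups were separate at each time and the 2 h arrays lay below the 1 h arrays. The difference was -0.54 (SE 0.09), with means of 7.89 at 1 h and 7.61 at 2 h and adjusted p = 0.0812 (and 0.0159). E01G4.3 had means of 8.07, 7.6 and 7.44 at 0, 1 and 2 h and a difference of -0.56, SE 0.09 (adjusted p = 0.0798 and 0.0309).

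**Figure D3:**
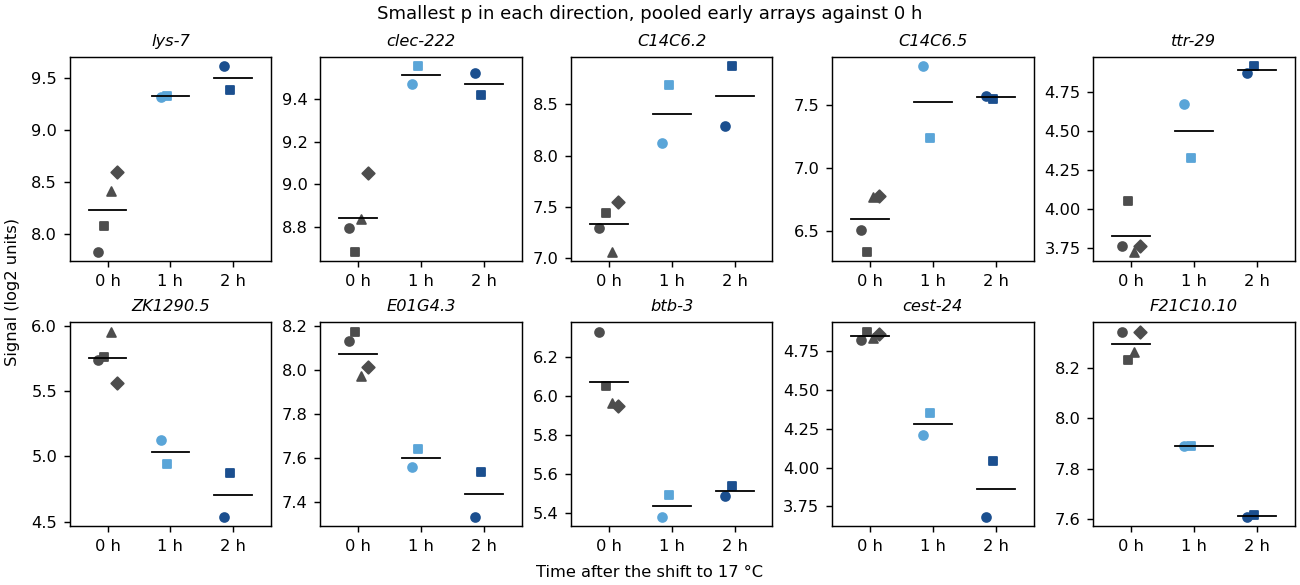
Log2 signal (vertical, a separate scale for each gene) at 0, 1 and 2 h for the 5 genes with the smallest pooled p in each direction. Each mark is 1 array, its shape gives the replicate number as in the plot of principal components, and bars are means of 4, 2 and 2 arrays; in all 10 genes every early array lies outside the range of the 0 h arrays.

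The largest separated differences were not those with the smallest p. The F-box gene fbxc-58 had 3.78, 3.40, 4.36 and 4.42 at 0 h, 4.70 and 5.43 at 1 h and 5.96 and 5.92 at 2 h and the largest difference among separated genes, 1.51 (SE 0.29), 2.85-fold, with means of 5.07 at 1 h and 5.94 at 2 h (adjusted p = 0.12, and 0.0291 with 1 mean per time). Its 0 h arrays were widely spread (SD 0.49). F53B2.8 had 8.24, 8.38, 8.24 and 8.42 at 0 h, 8.84 and 9.61 at 1 h and 10.21 and 9.92 at 2 h, a difference of 1.32 (SE 0.23) with means of 9.22 at 1 h and 10.06 at 2 h (adjusted p = 0.0849 and 0.0138). Its lowest early array was replicate 1 at 1 h. The tetraspanin gene tsp-2 had means of 3.75, 4.53 and 5.73 at 0, 1 and 2 h and a difference of 1.38, SE 0.30 (adjusted p = 0.153 and 0.0145). The 0 h levels of fbxc-58 and tsp-2 lay near the lower quartile, so their sizes are uncertain.

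Downward, F57B1.6 had 5.76, 5.56, 5.0 and 5.5 at 0 h, 4.99 and 4.44 at 1 h and 4.24 and 3.44 at 2 h, a difference of -1.18 (SE 0.27), 2.26-fold lower, with means of 4.72 at 1 h and 3.84 at 2 h (adjusted p = 0.163 and 0.0455). The highest early array lay just below the lowest 0 h array. K02E7.6 had 4.32, 4.41, 4.46 and 4.49 at 0 h, 3.72 and 3.99 at 1 h and 3.06 and 3.09 at 2 h, a difference of -0.96 (SE 0.18) with means of 3.86 at 1 h and 3.07 at 2 h (adjusted p = 0.12 and 0.00686). Its 2 h arrays were below the lower quartile, so the size is uncertain there. The neprilysin-family peptidase gene nep-14 had means of 5.16, 4.36 and 3.97 and a difference of -1.0 (SE 0.24) but passed in neither fit (adjusted p = 0.183 and 0.123). C40H1.7 had the largest lower difference of all genes, -1.27 (SE 0.38), but its groups overlapped, since replicate 1 at 1 h (9.26) lay within the 0 h range (9.21 to 9.53) and replicate 2 at 2 h was at 6.83. Its means were 9.37, 8.86 and 7.34 at 0, 1 and 2 h. It fell in the fit with 1 mean per time (adjusted p = 0.0454, and 0.297 pooled).

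Lysozyme, saposin and antimicrobial peptide genes, with lys-7 among them, leaned upward in the early arrays. Of 59 measured lysozyme, saposin and antimicrobial peptide genes, 0 passed, 15 were higher and 1 was lower at an unadjusted p under 0.05 (27.1% either way, against 10.8% of all genes), and 44 lay above 0, with a median of 0.11 against -0.01 over all genes. The median was 0.08 at 1 h and 0.16 at 2 h. By sign alone, 7972 of all genes lay above 0 and 9146 below. The count of 15 was 7 without replicate 1 at 0 h or replicate 2 at 2 h and 8 without replicate 2 at 0 h. Besides lys-7, lys-2 had means of 9.95, 10.14 and 10.56 at 0, 1 and 2 h (difference 0.40, SE 0.15, limma adjusted p = 0.372). For lys-3 they were 4.45, 4.75 and 5.32 (difference 0.59, SE 0.19, adjusted p = 0.326) and for lys-6 5.49, 5.62 and 6.19 (difference 0.42, SE 0.15, adjusted p = 0.366). The caenacin gene cnc-2, of an antimicrobial peptide family, had 8.82, 9.17 and 9.53 (difference 0.53, SE 0.23, adjusted p = 0.436). The lower member was lys-9, with 3.88, 3.51 and 3.7 (difference -0.27, SE 0.08, limma adjusted p = 0.297). The early signal of lys-9 lay near the lower quartile, so its difference is uncertain in size.

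Of 220 C-type lectin genes, 0 passed in the pooled fit, 17 were higher and 4 lower at an unadjusted p under 0.05 (9.55%), and their median was -0.01, the same as that of all genes. The lower count was 13 without replicate 1 at 1 h, 8 without replicate 4 at 0 h or replicate 1 at 2 h and 7 without replicate 2 at 0 h, and after centring each array on its median it was 11. The infection response gene irg-2 had 4.45, 4.18, 4.13 and 4.38 at 0 h, 4.67 and 5.05 at 1 h and 5.19 and 5.28 at 2 h. All early arrays lay above the 0 h arrays, and irg-2 rose in the fit with 1 mean per time (difference 0.76, SE 0.13, adjusted p = 0.0252, and 0.0849 pooled), with means of 4.86 at 1 h and 5.23 at 2 h. The gene next to it on the chromosome, C49G7.10, also rose in that fit (adjusted p = 0.0279, and 0.0849 pooled), with means of 6.37, 7.30 and 7.80 and a difference of 1.18 (SE 0.20).

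Some genes known from severe cold lay higher in the early arrays. The bZIP factor gene zip-10 had 5.42, 5.96, 5.79 and 5.82 at 0 h, 6.15 and 6.87 at 1 h and 7.33 and 6.75 at 2 h. Every early array lay above the 0 h arrays, with replicate 1 at 1 h lowest. Its means were 5.75 ± 0.23 at 0 h and 6.77 ± 0.48 in the early arrays (SD, n = 4 each), or 6.51 at 1 h and 7.04 at 2 h, a difference of 1.03 (SE 0.21), 2.04-fold, with limma adjusted p = 0.127 in the pooled fit and 0.0461 with 1 mean per time. The latter call was kept in 1 of the 8 fits that left out an array. The spliceosome-associated gene isy-1, which in C. elegans restrains zip-10, had means of 11.46, 11.38 and 11.36 and a difference of -0.09, SE 0.07 (adjusted p = 0.67). On a list of 58 genes linked to cold, 11 were higher and 2 lower at an unadjusted p under 0.05 (22.4%), with a median of 0.03. The lower count was 4 without replicate 4 at 0 h or replicate 1 at 1 h. Over all genes the share was 10.8%.

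The cathepsin B-like protease gene cpr-3 had 6.88, 6.77, 7.12 and 7.01 at 0 h, 7.5 and 7.41 at 1 h and 8.0 and 8.32 at 2 h. The early arrays lay above the 0 h arrays at each time and the 2 h arrays above the 1 h arrays. Its difference was 0.86 (SE 0.18), 1.82-fold, with means of 7.45 at 1 h and 8.16 at 2 h. The limma adjusted p was 0.133 pooled and 0.0138 with 1 mean per time. A second probe set differed by 0.90 (limma adjusted p = 0.186 and 0.0261). Both probe sets are of the type treated here as cross-hybridising, so either may also read related genes. The aspartyl protease gene asp-17 had 4.96, 5.19, 5.08 and 4.82 at 0 h, 5.20 and 5.48 at 1 h and 5.70 and 6.77 at 2 h, a difference of 0.78 (SE 0.27) with means of 5.34 at 1 h and 6.23 at 2 h (adjusted p = 0.342 and 0.154). Its size rests largely on replicate 2 at 2 h. The cathepsin B-like gene cpr-1, an intestinal protease, had 7.59, 7.87 and 8.25 (difference 0.47, SE 0.14, adjusted p = 0.299) and asp-14 had 8.0, 8.33 and 8.44 (difference 0.39, SE 0.14, adjusted p = 0.37). Of 27 cathepsin-like and aspartyl protease genes, 0 passed in the pooled fit, 5 were higher and 0 lower at an unadjusted p under 0.05 (18.5%), and their median was 0.02. Without replicate 4 at 0 h the count was 3. Among all genes the share was 10.8%.

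**Figure D4:**
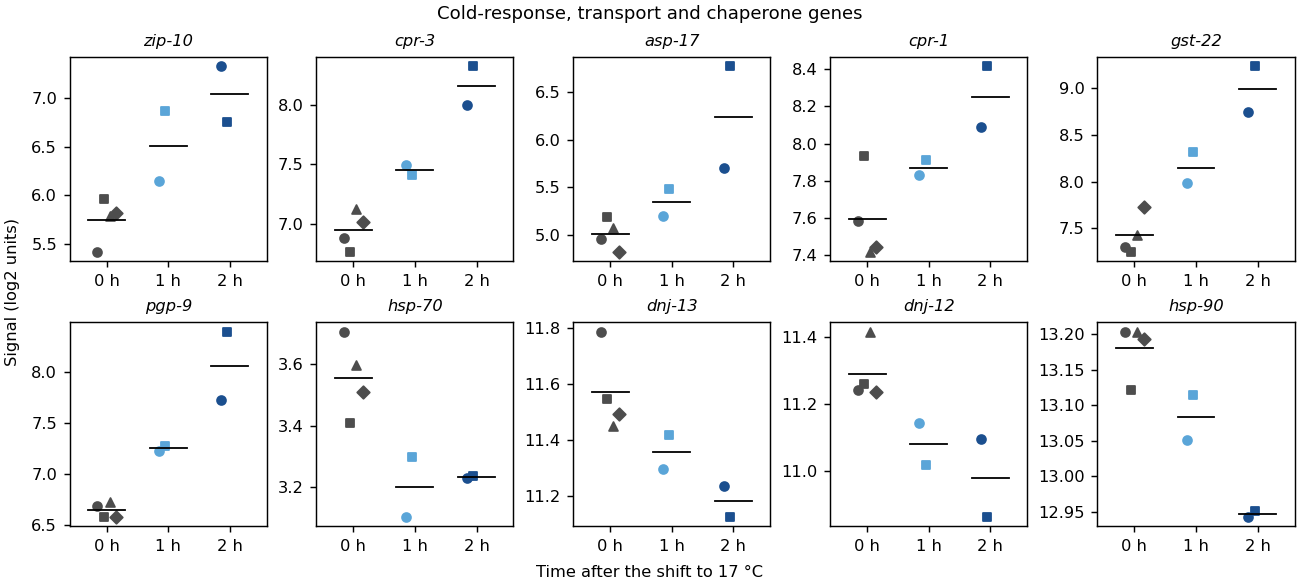
Log2 signal (vertical, a separate scale for each gene) at 0, 1 and 2 h of 10 genes of the cold response, detoxification and protein folding. Each mark is 1 array and bars are means of 4, 2 and 2 arrays; zip-10, cpr-3, gst-22 and pgp-9 have all early arrays above the 0 h arrays, and hsp-70, dnj-13, dnj-12 and hsp-90 have all of them below.

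Other transcription factors were mixed. Of 48 bZIP and immediate transcription factor genes, 0 passed in the pooled fit, 8 were higher and 4 lower at an unadjusted p under 0.05 (25%), with a median of 0.02. The count of 8 was 5 without replicate 4 at 0 h, replicate 2 at 1 h or replicate 1 at 2 h, and the count of 4 was 2 without replicate 2 at 0 h or at 2 h. The TFEB homologue gene hlh-30, which controls autophagy and lysosome genes, had 8.51, 8.86 and 8.97 at 0, 1 and 2 h (difference 0.41, SE 0.10, adjusted p = 0.178). Its other probe sets differed by 0.13 and 0.56. The bZIP gene zip-12 had 8.48, 8.11 and 7.46 (difference -0.70, SE 0.19, adjusted p = 0.238) and zip-3 had 7.86, 7.57 and 7.41 (difference -0.37, SE 0.08, adjusted p = 0.16). In hlh-30 all early arrays lay above the 0 h arrays, and in zip-12 and zip-3 all lay below. The autophagy receptor gene sqst-1 had 7.01, 7.35 and 8.06 (difference 0.69, SE 0.21, adjusted p = 0.284, and 0.39 in its second probe set). On the autophagy and lysosome list of 38 genes, 5 were higher and 1 lower at an unadjusted p under 0.05 (15.8%). Without either 2 h array 3 were higher, and without replicate 1 at 1 h 3 were lower.

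Detoxification and transport genes held some of the larger differences. The glutathione S-transferase gene gst-22, of a family that conjugates toxic compounds, had 7.30, 7.25, 7.43 and 7.73 at 0 h, 7.99 and 8.31 at 1 h and 8.75 and 9.23 at 2 h. Its early arrays were all above the 0 h arrays and its 2 h arrays highest. It rose in the fit with 1 mean per time (adjusted p = 0.0138) and not in the pooled fit (adjusted p = 0.12), with a difference of 1.14 (SE 0.22), 2.21-fold, and means of 8.15 at 1 h and 8.99 at 2 h. The P-glycoprotein gene pgp-9, an efflux pump of the ABC family, had 6.69, 6.58, 6.73 and 6.58 at 0 h, 7.23 and 7.28 at 1 h and 7.73 and 8.4 at 2 h. The same order of times held. Its difference was 1.01 (SE 0.21) with means of 7.25 at 1 h and 8.06 at 2 h (adjusted p = 0.133 pooled and 0.0145 with 1 mean per time). Its relative pgp-3 had 5.43, 5.75 and 6.23 (difference 0.56, SE 0.16, adjusted p = 0.273).

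Of 54 ABC transporter genes, 0 passed in the pooled fit, 8 were higher and 4 lower at an unadjusted p under 0.05 (22.2%), and the median was -0.04. Of 72 glutathione S-transferase and redox genes, 6 were higher and 1 lower (9.72%). Of 64 UDP-glucuronosyltransferase genes, 4 were higher and 5 lower (14.1%), and of 75 cytochrome P450 genes, 2 were higher and 6 lower (10.7%). Over all genes the share was 10.8%. The counts of these lists moved with single arrays. The 8 ABC transporter genes higher were 4 without replicate 1 or 4 at 0 h or either 2 h array, and the 4 lower were 2 without replicate 1 at 0 h or at 2 h. Without replicate 2 at 2 h, 3 glutathione S-transferase and redox genes and 2 UDP-glucuronosyltransferase genes were higher. The lower count of UDP-glucuronosyltransferase genes was 8 without replicate 1 at 1 h, 1 without replicate 2 at 0 h or replicate 1 at 2 h and 2 without replicate 2 at 2 h. The higher count of cytochrome P450 genes was 4 without replicate 2 at 1 h and 0 without replicate 1 at 0 h or at 2 h. The UDP-glucuronosyltransferase gene ugt-63 fell in the fit with 1 mean per time (adjusted p = 0.036, and 0.216 pooled), with means of 8.06, 7.68 and 6.96 at 0, 1 and 2 h and a difference of -0.73 (SE 0.19). The cytochrome P450 gene cyp-13A2 had 4.26, 3.88 and 3.53 (difference -0.55, SE 0.12, adjusted p = 0.16 and 0.0693), and daf-36, an oxygenase gene of steroid hormone synthesis, had 8.54, 8.15 and 7.62 (difference -0.65, SE 0.17, adjusted p = 0.237 and 0.0948). In ugt-63, cyp-13A2 and daf-36 every early array lay below every 0 h array. The 2 h mean of cyp-13A2 lay near the lower quartile, so its difference is uncertain in size.

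In lipid and energy metabolism, a few enzymes differed without a common direction. The ceramide glucosyltransferase gene cgt-1 had 4.36, 4.12, 4.21 and 3.98 at 0 h, 4.56 and 5.08 at 1 h and 5.64 and 5.96 at 2 h. Its signal was highest at 2 h, and it rose in the fit with 1 mean per time (difference 1.14, SE 0.24, 2.2-fold, adjusted p = 0.0138, and 0.14 pooled), with means of 4.82 at 1 h and 5.80 at 2 h. The glyoxylate cycle gene icl-1, whose enzyme lets animals make sugar from fat, had 8.29, 8.74 and 9.02 at 0, 1 and 2 h and also rose in that fit (difference 0.59, SE 0.10, adjusted p = 0.0292, and 0.0849 pooled). Its other probe sets differed by 0.48 and 0.63. The enoyl-CoA hydratase family gene ech-7 had 10.22, 10.70 and 11.14 (difference 0.70, SE 0.16, adjusted p = 0.16) and the lipase gene lips-5 6.47, 6.69 and 7.47 (difference 0.61, SE 0.19, adjusted p = 0.318). Over the fatty acid activation and beta-oxidation list, differences ran from -0.85 to the 0.70 of ech-7. The gene gpdh-1, whose dehydrogenase makes the osmolyte glycerol, fell in the fit with 1 mean per time (adjusted p = 0.0344, and 0.273 pooled), from 7.07, 6.74 and 5.79, a difference of -0.81 (SE 0.24). The polyamine synthesis gene smd-1 also fell in that fit, from 8.43, 8.19 and 7.74 (difference -0.46, SE 0.12, adjusted p = 0.0347, and 0.204 pooled).

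Of the desaturase, elongase and membrane fluidity genes named by rule, none passed in either fit. The desaturase gene fat-7 had 4.0, 4.56, 4.48 and 4.28 at 0 h, 4.53 and 4.72 at 1 h and 4.81 and 5.89 at 2 h. Its highest early array was replicate 2 at 2 h, and the lowest early array lay within the 0 h range. Its difference was 0.66 (SE 0.25) with means of 4.63 at 1 h and 5.35 at 2 h (adjusted p = 0.386). The palmitoyl desaturase gene fat-5 had means of 8.59, 8.82 and 9.28 at 0, 1 and 2 h and a difference of 0.45, SE 0.22 (adjusted p = 0.487). For fat-6 they were 9.82, 9.95 and 9.92, a difference of 0.12, SE 0.11 (adjusted p = 0.752). The groups overlapped in each. The elongase gene elo-2 had 8.83, 9.25 and 9.54, with all early arrays above the 0 h arrays and a difference of 0.56, SE 0.13 (adjusted p = 0.183). The membrane fluidity gene paqr-2 had 6.56, 6.55 and 6.48 (difference -0.04, SE 0.08, adjusted p = 0.911), and its sign turned with replicates 1 and 2 alone at 0 h (0.041), without replicate 3 at 0 h (0.0077) and without replicate 2 at 2 h (0.0048). Of 26 fatty acid synthesis and desaturation genes, 2 were higher and 0 lower at an unadjusted p under 0.05 (7.69%), and of 63 activation and beta-oxidation genes, 6 were higher and 6 lower (19%), of which 3 lower were left without replicate 3 at 0 h or replicate 2 at 2 h.

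Chaperone genes with a probe set of their own lay lower or near their 0 h levels, by small amounts. Probe sets shared by heat-inducible chaperone genes, given below, had larger differences, from -0.98 to -0.51. Hsp40 co-chaperones hand unfolded proteins to HSP70, the CCT complex folds actin and tubulin, and HSP90 folds kinases and receptors. Of 32 measured cytosolic chaperone genes, 0 passed, 0 were higher and 7 lower at an unadjusted p under 0.05 (21.9% either way), 24 lay below 0, and the median was -0.07 (-0.06 at 1 h and -0.07 at 2 h). The median was -0.04 without replicate 3 at 0 h. Among all genes, 10.8% had such a p, 9146 lay below 0 and 7972 above. The 7 became 3 without replicates 1, 3 or 4 at 0 h or without either 2 h array. The Hsp40 gene dnj-13 had 11.79, 11.55, 11.45 and 11.49 at 0 h, 11.29 and 11.42 at 1 h and 11.23 and 11.12 at 2 h. The groups did not overlap, and the 2 h arrays were lowest. Its difference was -0.30 (SE 0.10) with means of 11.36 at 1 h and 11.18 at 2 h (adjusted p = 0.311).

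The Hsp40 gene dnj-12 had 11.24, 11.26, 11.42 and 11.24 at 0 h, 11.14 and 11.02 at 1 h and 11.10 and 10.86 at 2 h, and its early arrays all lay below the 0 h arrays, with means of 11.08 at 1 h and 10.98 at 2 h and a difference of -0.26, SE 0.08 (adjusted p = 0.324). A second, dim probe set of dnj-12 differed by -0.02. The chaperonin gene cct-5 had 11.02, 10.80 and 10.75 at 0, 1 and 2 h (difference -0.24, SE 0.09, adjusted p = 0.354, and -0.09 in its second probe set), the BAG-domain gene unc-23 had 6.34, 6.23 and 6.04 (difference -0.21, SE 0.08, adjusted p = 0.394) and hsp-90 had 13.18, 13.08 and 12.95 (difference -0.17, SE 0.07, adjusted p = 0.437). For hsf-1, the heat-shock factor, the means were 10.40, 10.35 and 10.33, a difference of -0.06, SE 0.07 (adjusted p = 0.831), while its second probe set differed by 0.15. Of 20 chaperones of the endoplasmic reticulum, 0 were higher and 1 lower, cnx-1, from 10.64, 10.48 and 10.42 (difference -0.19, SE 0.08, adjusted p = 0.43). Of 15 mitochondrial chaperones and proteases, 0 were higher and 2 lower, with hsp-60 from 12.03, 11.90 and 11.67 (difference -0.24, SE 0.11, adjusted p = 0.437), while its second probe set differed by -0.02. Without single arrays 0 to 1 of the mitochondrial genes were higher and 0 to 2 lower.

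The heat-inducible chaperones are made on heat stress. Of 5 measured genes with a probe set of their own, 0 were higher and 1 lower at an unadjusted p under 0.05, and the median was -0.16. Without replicate 1 at 0 h the median was -0.29, and it was -0.03 without replicate 4 at 0 h and -0.06 without replicate 1 at 2 h. The lower gene, hsp-70, had 3.71, 3.41, 3.60 and 3.51 at 0 h, 3.10 and 3.30 at 1 h and 3.23 and 3.23 at 2 h. Its early arrays all lay below the 0 h arrays, at a signal near or under the lower quartile, so its difference of -0.34 (SE 0.08) is uncertain in size (means of 3.20 at 1 h and 3.23 at 2 h, adjusted p = 0.197). For the small heat-shock protein gene, hsp-16.2, arrays gave 4.69, 4.95, 5.21 and 5.46 at 0 h, 5.08 and 4.99 at 1 h and 4.63 and 4.97 at 2 h, with overlapping groups, means of 5.04 at 1 h and 4.80 at 2 h and a difference of -0.16, SE 0.15 (adjusted p = 0.767), whose sign turned with replicates 1 and 2 alone at 0 h (0.10). For hsp-16.41 the means were 3.51, 3.65 and 3.22 at 0, 1 and 2 h, near or under the lower quartile. Its difference was -0.07, SE 0.17 (limma adjusted p = 0.915), and its sign also turned there (0.08).

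Probe sets that read several heat-inducible genes at once are not among the 20766 and are given beside them. The pair for the HSP70-family genes F44E5.5 and F44E5.4 went from 4.69 at 0 h to 3.87 at 1 h and 3.55 at 2 h, a difference of -0.98 (SE 0.12), and from 3.30 to 2.86 and 2.72, a difference of -0.51 (SE 0.08). The early arrays lay below the 0 h arrays in both. The limma adjusted p was 0.0681 and 0.0783 in the pooled fit, and both fell in the fit with 1 mean per time (0.0121 and 0.0261). The second signal lay under the lower quartile at all 3 times and the first came down to it at 2 h, so the sizes are uncertain. A probe set shared by hsp-16.49 and hsp-16.48 went from 6.33 to 5.90 and 5.09 (difference -0.84, adjusted p = 0.334), and one shared by hsp-16.11 and hsp-16.1 from 7.57 to 7.23 and 6.66 (difference -0.63, adjusted p = 0.3), with overlapping groups in both.

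Genes of the substrate adaptors of ubiquitin ligases differed in both directions. MATH and BTB domain proteins bind targets for CUL-3 ligases, and F-box proteins do so for SCF ligases. Of the measured MATH and BTB genes, 0 passed in the pooled fit, 5 were higher and 17 lower at an unadjusted p under 0.05 (21.4% either way), 68 lay below 0 and 35 above, and the median was -0.06. With single arrays left out the lower count ran from 15 to 19 and the higher count from 2 to 4. Among all genes, 10.8% had such a p, 9146 lay below 0 and 7972 above. The smallest p was that of btb-3. The gene math-24 had 5.79, 5.59, 5.79 and 5.97 at 0 h, 5.34 and 5.24 at 1 h and 5.22 and 5.26 at 2 h. Its early arrays lay together below the 0 h arrays. It fell in the fit with 1 mean per time (difference -0.52, SE 0.09, adjusted p = 0.0461, and 0.0849 pooled), with means of 5.29 at 1 h and 5.24 at 2 h. Neither btb-3 nor math-24 kept that call in any of the 8 fits without 1 array. The gene bath-19 had 8.21, 7.88 and 7.89 at 0, 1 and 2 h (difference -0.33, SE 0.08, adjusted p = 0.209) and bath-22 5.28, 4.98 and 4.96 (difference -0.31, SE 0.09, adjusted p = 0.271).

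Of 310 F-box genes, 0 passed in the pooled fit, 26 were higher and 22 lower at an unadjusted p under 0.05 (15.5%), and the median was 0.01 (-0.02 after centring each array on its median). With 1 mean per time 3 rose and 0 fell. Besides fbxc-58, fbxa-162 had 4.67, 4.57, 4.43 and 4.77 at 0 h, 4.88 and 5.71 at 1 h and 5.79 and 5.70 at 2 h, and its difference was 0.91 (SE 0.18) with means of 5.30 at 1 h and 5.74 at 2 h (adjusted p = 0.0448 in that fit and 0.12 pooled). Its early arrays lay above the 0 h arrays, and replicate 1 at 1 h was far below the other 3. The third, fbxa-98, had 5.32, 5.69 and 6.0 (difference 0.52, SE 0.10, adjusted p = 0.0344 and 0.12).

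Neuropeptide and insulin-like peptide genes lay mostly upward. Of 110 measured, 0 passed in either fit, 25 were higher and 1 lower at an unadjusted p under 0.05 (23.6% either way), 78 lay above 0, and the median was 0.09 (0.09 at 1 h and 0.13 at 2 h). The count of 25 was 15 without replicate 2 at 2 h. Over all genes, 10.8% had such a p, 7972 lay above 0 and 9146 below. The FMRFamide-like peptide gene flp-18 had 6.95, 6.97, 7.03 and 7.28 at 0 h, 7.34 and 7.51 at 1 h and 7.54 and 7.77 at 2 h. The groups did not overlap. Its difference was 0.48 (SE 0.11) with means of 7.43 at 1 h and 7.66 at 2 h (adjusted p = 0.153). The gene flp-8 had 4.73, 5.44 and 5.67 at 0, 1 and 2 h (difference 0.82, SE 0.18, adjusted p = 0.154, and 0.32 in its second probe set), flp-12 5.23, 5.73 and 5.84 (difference 0.56, SE 0.14) and flp-1 6.55, 7.06 and 7.36 (difference 0.66, SE 0.19). The insulin-like peptide gene ins-7 had 7.25, 7.81 and 8.05 (difference 0.67, SE 0.19, adjusted p = 0.261) and ins-34 6.64, 6.98 and 7.30 (difference 0.5, SE 0.11, adjusted p = 0.153).

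Other genes that act in neurons were among those that rose in the fit with 1 mean per time. The gene aex-3, whose product activates the synaptic vesicle protein RAB-3, had 5.70, 5.77, 5.66 and 5.70 at 0 h, 6.07 and 6.26 at 1 h and 6.17 and 6.27 at 2 h. The groups were well apart. Its difference was 0.48 (SE 0.07) with means of 6.17 at 1 h and 6.22 at 2 h (adjusted p = 0.0344 in that fit and 0.0798 pooled). A second, dim probe set of aex-3 differed by 0.33 with overlapping groups (limma adjusted p = 0.295 and 0.393). The axon guidance gene max-1 had 4.55, 5.02 and 5.79 at 0, 1 and 2 h (difference 0.86, SE 0.21, adjusted p = 0.033 and 0.186). Markers of all neurons stood beside them at a median of 0.10 over 14 genes, 9 above 0, with 2 higher and 0 lower at an unadjusted p under 0.05 (14.3%). The smallest p was that of egl-3, a peptide-processing protease gene, at 7.01, 7.34 and 7.38 (0.35, SE 0.11), while its second, equally bright probe set differed by -0.03. Their part in these differences was not tested.

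The temperature-sensing genes named by rule showed no difference that passed. The AFD guanylyl cyclase gene gcy-8 had 3.87, 3.87 and 3.81 at 0, 1 and 2 h (difference -0.03, SE 0.08), gcy-18 had 4.85, 4.99 and 4.93 (0.11, SE 0.12) and gcy-23 had 4.45, 4.53 and 4.33 (-0.01, SE 0.14). The cyclic nucleotide-gated channel gene tax-4 had 4.72, 4.68 and 4.74 (-0.01, SE 0.09). Their adjusted p ran from 0.78 for gcy-18 to 0.984 for gcy-23, and the signs of gcy-8, gcy-23 and tax-4 turned in several of the other fits. The signal of gcy-8 lay near the lower quartile. On the thermosensory list of 29 genes, 2 were higher and 2 lower at an unadjusted p under 0.05 (13.8%), and 0 were lower without replicate 2 at 1 h or at 2 h. The smallest p was that of avr-14, a glutamate-gated chloride channel gene, with 4.63, 4.12, 4.27 and 4.39 at 0 h, 4.87 and 4.96 at 1 h and 5.41 and 4.92 at 2 h. All early arrays lay above the 0 h arrays, with a difference of 0.68 (SE 0.14) and means of 4.91 at 1 h and 5.16 at 2 h (adjusted p = 0.123 and 0.0693), but a second, dimmer probe set differed by 0.01. The GTP cyclohydrolase gene cat-4, needed for dopamine and serotonin synthesis, had 7.87, 8.35 and 8.73 (difference 0.67, SE 0.21, adjusted p = 0.319).

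Of 40 transthyretin-like genes, 0 passed in the pooled fit, 8 were higher and 1 lower at an unadjusted p under 0.05 (22.5%), 32 lay above 0, and the median was 0.11 (0.08 at 1 h and 0.10 at 2 h). The count of 8 was 5 without replicate 3 at 0 h, replicate 2 at 1 h or replicate 1 at 2 h. Among all genes, 10.8% had such a p, 7972 lay above 0 and 9146 below. Besides ttr-29, ttr-23 rose in the fit with 1 mean per time (adjusted p = 0.0205, and 0.123 pooled), with 6.75, 7.02, 6.89 and 7.17 at 0 h, 7.44 and 7.49 at 1 h and 7.87 and 8.19 at 2 h and a difference of 0.79 (SE 0.16). Its means were 7.47 at 1 h and 8.03 at 2 h, and all early arrays lay above the 0 h arrays. The gene ttr-27 had 4.35, 4.65 and 4.81 at 0, 1 and 2 h (difference 0.37, SE 0.09, adjusted p = 0.183 and 0.125).

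**Figure D5:**
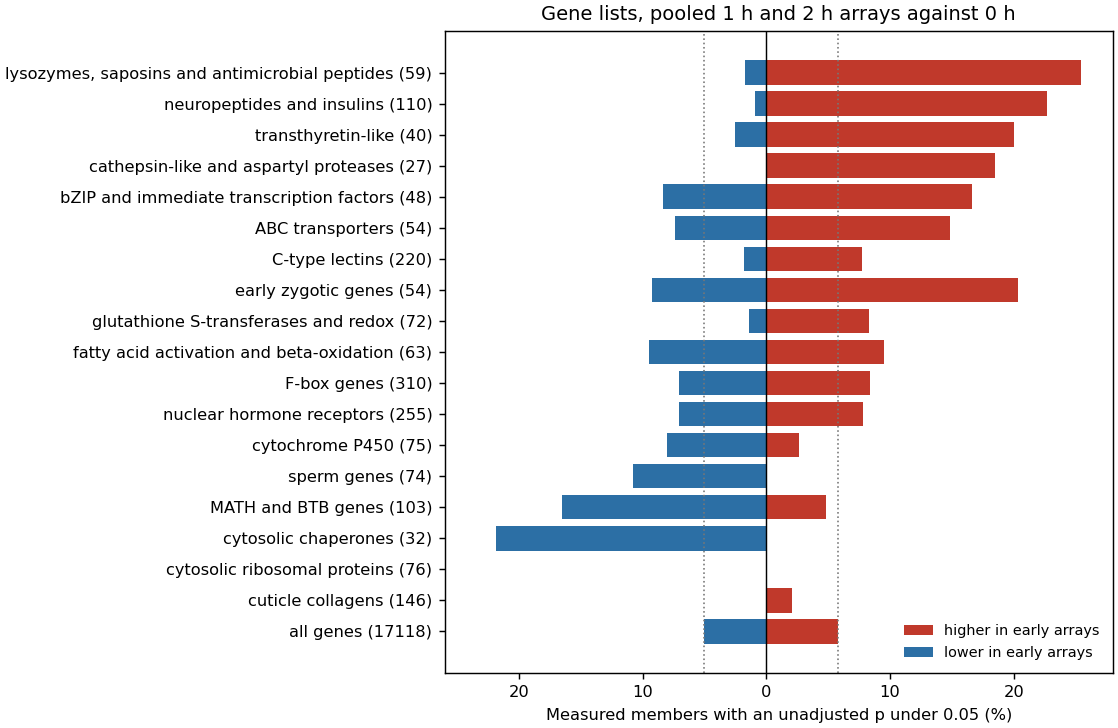
Percent of the measured members of each gene list (number in brackets) with an unadjusted limma p under 0.05, higher to the right in red and lower to the left in blue, in the pooled early arrays. Dotted lines mark all 17118 genes (5.75% higher, 5.02% lower); lysozymes, saposins and antimicrobial peptides hold 15 higher of 59 and cytosolic chaperones 7 lower of 32.

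Genes with known roles in feeding, metals and excitability gave values that did not pass in either fit. The EndoU-family endoribonuclease gene endu-2 had 6.70, 6.91, 7.62 and 7.05 at 0 h, 7.53 and 7.27 at 1 h and 7.86 and 8.51 at 2 h. Only the 2 h arrays lay above the 0 h range, and replicates at 0 h were widely spread (SD 0.40). Its difference was 0.72 (SE 0.25) with means of 7.40 at 1 h and 8.19 at 2 h (adjusted p = 0.347). In a second, dimmer probe set all early arrays lay above the 0 h arrays, with a difference of 0.87 (adjusted p = 0.311). The gene kqt-2, for a potassium channel of the KCNQ family, had 6.19, 6.49 and 7.34 at 0, 1 and 2 h (difference 0.72, SE 0.24, adjusted p = 0.336), while its other probe sets differed by 0.12 and 0.24. The intestinal peptide transporter gene pept-1 had 7.0, 7.18 and 7.40 (difference 0.29, SE 0.10, adjusted p = 0.338) and the metallothionein gene mtl-1, which binds metals, had 9.11, 9.26 and 9.09 (difference 0.07, SE 0.13, adjusted p = 0.893).

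Of 64 potassium channel genes 3 were higher and 0 lower at an unadjusted p under 0.05 (4.69%), led by kqt-2. Without replicate 1 at 0 h or replicate 2 at 1 h 1 was higher, and without the latter 3 were lower. The share over all genes was 10.8%. Of 31 metal-handling genes 1 was higher and 3 lower (12.9%; 6 lower without replicate 1 at 1 h, and 1 without replicate 3 at 0 h or replicate 2 at 2 h), and the smallest p was that of the phytochelatin synthase gene pcs-1, at 8.54, 8.37 and 8.24 (-0.24, SE 0.08, adjusted p = 0.347). Of 15 osmolyte genes 2 were higher and 1 lower, and osm-11, a regulator of the osmotic response, had 9.85, 10.23 and 10.29 (0.41, SE 0.09, adjusted p = 0.14), with all early arrays above the 0 h arrays. Of 34 peptide and sugar transporter genes 1 was higher and 2 lower, with the SWEET-family gene swt-3 at 5.6, 5.16 and 4.96 (-0.54, SE 0.12, adjusted p = 0.157) and all its early arrays below the 0 h arrays. Of 29 lipase genes 3 were higher and 2 lower, led by lips-5. Of 7 heat-shock factor and regulator genes 1 was higher and 0 lower, the zinc-finger gene pqm-1, at 6.33, 6.45 and 6.72 (0.25, SE 0.11, adjusted p = 0.456).

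Reproductive and growth lists held shares on both sides of the 10.8% of all genes. Of 74 sperm genes, 0 were higher and 8 lower at an unadjusted p under 0.05 (10.8%), with a median of -0.09 that was -0.17 at 1 h and 0.0040 at 2 h. Leaving out single arrays moved this median to -0.15 (without replicate 3 at 0 h), -0.02 (without replicate 4 at 0 h), -0.04 (without replicate 1 at 1 h) and -0.05 (without replicate 2 at 0 h). The sperm gene spe-55 had 4.47, 4.15 and 4.21 (difference -0.29, SE 0.07, adjusted p = 0.2, and -0.10 in its second probe set), and spe-41 had 5.81, 5.39 and 5.41 (difference -0.41, SE 0.12, adjusted p = 0.284). Of 54 early zygotic genes, 11 were higher and 5 lower (29.6%), with a median of 0.08, and the 11 were 5 to 7 without replicates 1, 2 or 3 at 0 h or replicate 2 at 1 h. The 5 lower were 3 without replicates 1, 2 or 3 at 0 h. Their smallest p was that of pes-23, which was lower, from 6.04, 5.67 and 5.74 (difference -0.34, SE 0.09, adjusted p = 0.243). Of 40 oocyte and eggshell genes 0 were higher and 1 lower, puf-3, from 11.77, 11.60 and 11.55 (-0.20, SE 0.07). Of 47 germ line and meiosis genes 0 were higher and 3 lower, with syp-3 from 10.28, 10.12 and 10.07 (-0.19, SE 0.08). Leaving out single arrays gave 0 to 1 higher and 0 to 2 lower on that list.

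Of 6 yolk genes 0 were higher and 0 lower, with the smallest p for vit-1 (12.99, 12.95 and 12.90, difference -0.06 (SE 0.07)). Of 34 histone genes 4 were higher and 0 lower, with the linker histone gene hil-2 at 7.81, 8.01 and 8.10 (difference 0.25, SE 0.07). Without replicate 4 at 0 h 8 histone genes were higher. Of 76 cytosolic ribosomal protein genes 0 were higher and 0 lower at an unadjusted p under 0.05, with a median of -0.03, and the smallest p was that of rpl-42 (2.94, 2.8 and 2.70, -0.19 (SE 0.09)), a dim probe set. Of 31 proteasome genes 0 were higher and 3 lower, with rpt-5 from 10.77, 10.61 and 10.54 (-0.19, SE 0.08), and 26 lay below 0. Without replicates 3 or 4 at 0 h or replicate 2 at 1 h or 2 h, 0 proteasome genes were lower, and without replicate 1 at 0 h 1 was. By sign alone, 9146 of all genes lay below 0 and 7972 above. Of 42 respiratory chain genes 0 were higher and 2 lower, with ucr-2.3 from 10.34, 10.19 and 10.10 (-0.19, SE 0.08). Without single arrays 0 to 1 respiratory chain genes were higher and 0 to 2 lower. Of 50 translation genes 1 was higher and 2 lower, with eif-3.F from 8.63, 8.42 and 8.44 (-0.19, SE 0.07, and 0.03 in its second probe set), and of 78 splicing and RNA-binding genes 2 were higher and 0 lower, with rnp-9 at 4.22, 4.60 and 4.36 (0.27, SE 0.09).

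Of 146 cuticle collagen genes 3 were higher and 0 lower (2.05%), with col-122 at 9.42, 9.76 and 9.91 (0.41, SE 0.09, adjusted p = 0.153). Without single arrays the collagen counts were 3 to 7 higher, most without replicate 4 at 0 h, and 0 to 5 lower, most without replicate 2 at 2 h. On the list of hedgehog-related, patched-related and astacin genes 12 were higher and 5 lower (13.9%; 1 lower without replicate 2 at 1 h and 2 without replicate 1 at 2 h), with nas-9 at 6.08, 6.48 and 6.43 (0.38, SE 0.09). Of 255 nuclear hormone receptor genes 20 were higher and 18 lower (14.9%), with nhr-2 at 8.09, 8.71 and 8.54 (0.53, SE 0.11), though its other 3 probe sets differed by 0.02 to 0.19. The 18 lower were 11 without replicate 1 and 10 without replicate 2 at 0 h. Of 1261 chemoreceptor genes 28 were higher and 37 lower (5.15%), with srsx-34 at 4.26, 4.75 and 4.71 (0.47, SE 0.10, and 0.11 and 0.20 in its other, dim probe sets). The split of the chemoreceptor genes turned to 37 higher and 24 lower without replicate 2 at 1 h. It was 29 and 62 without replicate 1 at 1 h, 17 and 50 without replicate 4 at 0 h, 21 and 20 without replicate 2 at 0 h, and 12 and 55 after centring each array on its median. Of 9 dod genes 2 were higher and 0 lower, with dod-3 at 6.56, 7.17 and 7.54 (0.79, SE 0.20). Against 10.8% of all genes, the shares of collagens and chemoreceptors were lower and the others somewhat higher.

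Markers of some tissues also lay higher in the early arrays. All 10 measured body wall muscle markers lay above 0, with 3 higher at an unadjusted p under 0.05 and a median of 0.13. Their median difference from the 0 h mean was -0.05 and 0.26 in the 1 h arrays and 0.10 and 0.28 in the 2 h arrays (replicates 1 and 2), and from -0.05 to 0.11 in the 0 h arrays. The pair of replicate 2 was thus higher than the pair of replicate 1. The myosin gene unc-54 had 10.14, 10.13, 10.10 and 10.06 at 0 h, 10.13 and 10.66 at 1 h and 10.34 and 10.57 at 2 h, a difference of 0.32 (SE 0.11) with means of 10.39 at 1 h and 10.46 at 2 h. Without replicate 1 at 1 h 5 muscle markers were higher, and without replicate 3 at 0 h or either replicate 2 of the early arrays 1 was. Among all genes, 10.8% had an unadjusted p under 0.05, 7972 lay above 0 and 9146 below.

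Of 13 intestine markers, 5 were higher and 0 lower at an unadjusted p under 0.05 (10.8% of all genes, either way). Their median was 0.07, and 0.02 without replicate 2 at 2 h. The intestinal GATA factor gene elt-2 had 5.25, 5.47 and 5.64 at 0, 1 and 2 h (difference 0.31, SE 0.09, adjusted p = 0.27), elt-7 had 5.24, 5.5 and 5.44 (0.23, SE 0.07) and mtl-2 8.75, 9.01 and 9.01 (0.26, SE 0.09). The intestinal genes vha-6 (8.54, 8.46 and 8.32, difference -0.15) and ges-1 (7.99, 7.98 and 7.81, difference -0.09) lay below 0. Of 7 pharynx markers 2 were higher and 0 lower, with myo-1 at 5.93, 6.16 and 6.35 (0.33, SE 0.10). Of 8 hypodermis markers 1 was higher and 0 lower, the GATA factor gene elt-3 at 7.64, 7.90 and 7.90 (0.26, SE 0.09, and 0.50 in its second probe set). Of 3 coelomocyte markers 0 were higher and 0 lower, with the smallest p for cup-4 at 6.5, 6.27 and 6.42 (-0.15, SE 0.10, and -0.03 in its second probe set). Of 8 markers of the gonadal sheath, spermatheca, uterus and vulva 0 were higher and 1 lower, unc-53 at 5.30, 5.05 and 5.16 (-0.20, SE 0.08). The part of the muscle, intestine and neuron markers in the differences above was not tested.

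More of the 63 genes called with 1 mean per time follow. Y6D1A.2, whose call did not depend on any single array, had 7.78, 7.79, 7.84 and 7.64 at 0 h, 8.31 and 8.30 at 1 h and 8.77 and 8.97 at 2 h. Its groups were separate and its 2 h arrays highest, with a difference of 0.82 (SE 0.14) and means of 8.31 at 1 h and 8.87 at 2 h (adjusted p = 0.00948 with 1 mean per time and 0.0849 pooled), though a second probe set differed by 0.31 (adjusted p = 0.316 and 0.398). The JNK-like kinase gene kgb-2 rose in that fit, from 4.49, 4.92 and 5.48 (0.71, SE 0.15, adjusted p = 0.0174), as did the arrestin-domain gene arrd-7, from 5.54, 5.81 and 6.48 (0.61, SE 0.17, adjusted p = 0.033). The cyclic GMP-dependent kinase gene pkg-2 fell, from 9.24, 8.93 and 8.51 (-0.52, SE 0.12, adjusted p = 0.0344), with a second probe set at -0.59, and the G protein alpha subunit gene gpa-18 fell from 5.16, 4.79 and 4.55 (-0.49, SE 0.09, adjusted p = 0.0311), with a second, dim probe set at -0.16.

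Among enzymes, the O-acyltransferase homologue gene oac-6 rose in that fit, from 6.04, 6.52 and 7.53 (0.99, SE 0.26, adjusted p = 0.0366, and 0.237 pooled). The short-chain dehydrogenase gene dhs-7 fell, from 6.15, 5.73 and 5.56 (-0.51, SE 0.09, adjusted p = 0.0432, and 0.0849 pooled). The chitinase-like gene chil-23 fell from 4.14, 3.57 and 3.27 (-0.72, SE 0.13, adjusted p = 0.0377) and the carboxylesterase gene cest-1.2 from 5.63, 5.07 and 5.30 (-0.45, SE 0.09, adjusted p = 0.0454). The gene cest-1.2 was lower at 1 h than at 2 h, while the other 3 were farther from 0 h at 2 h. Neither dhs-7 nor cest-1.2 kept its call in any of the 8 fits without 1 array. The early signal of chil-23 lay near or under the lower quartile, so its difference is uncertain in size. The ammonium transporter gene amt-4 had 9.28, 9.31, 9.30 and 9.45 at 0 h, 9.11 and 8.89 at 1 h and 8.63 and 7.52 at 2 h and passed in neither fit (difference -0.80, SE 0.27, means of 9.0 at 1 h and 8.07 at 2 h, adjusted p = 0.332 and 0.13). Its early arrays lay below the 0 h arrays, and replicate 2 at 2 h was far below the rest.

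The other genes that rose in the fit with 1 mean per time were clc-25, islo-1, B0507.3, C15H9.11, C23H4.6, C52B11.5, F14H12.3, K02C4.2, T01D3.6, T19H12.3, T23C6.4, Y43C5A.4 and Y47H10A.5. Their pooled differences ran from 0.45 for T01D3.6 to 0.92 for clc-25. K02C4.2 was dim, with means of 2.51, 2.90 and 3.20 at 0, 1 and 2 h, and the groups of C23H4.6 overlapped. The others that fell were F31F7.1, F31D4.8, T05E7.1, Y43F8B.2 and ZK1307.1, from -0.43 for Y43F8B.2 to -0.94 for T05E7.1. In T05E7.1 the means were 6.41, 5.87 and 5.07 (adjusted p = 0.0256, and 0.16 pooled).

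The step from 1 h to 2 h within the early group was tested with 1 mean per time, and 0 of 20766 probe sets passed (0%). At an unadjusted p under 0.05 there were 1198 (5.77%), 618 higher (2.98%) and 580 lower (2.79%) at 2 h, and in genes 1047 (6.12%), 549 higher (3.21%) and 498 lower (2.91%). Without replicate 1 at 2 h, 9 passed. The 10 genes named by rule had an adjusted p of 0.444 each in limma. Y37H2A.14 had 6.43, 6.68, 6.37 and 6.37 at 0 h, 7.09 and 6.91 at 1 h and 7.85 and 8.97 at 2 h, a step of 1.41 from 1 h to 2 h on top of a 1 h mean already above 0 h. The serine protease gene try-8 had 4.26, 4.06, 4.39 and 3.93 at 0 h, 4.35 and 4.57 at 1 h and 5.76 and 5.17 at 2 h, and its step was 1.01. In cgt-1 the step was 0.98. For pals-37 it was 0.71 and for ZK896.1 0.92, and in both the 1 h arrays lay below and the 2 h arrays above the 0 h range, so their pooled differences were 0.03 and -0.01. The signal of pals-37 lay under the lower quartile on every array, so its step is uncertain in size.

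Downward, nspe-1 had 6.73, 7.02, 6.89 and 7.12 at 0 h, 6.79 and 6.80 at 1 h and 5.97 and 5.78 at 2 h, a step of -0.92 with the 1 h mean near that of 0 h. K02E7.6 stepped by -0.79. For ZC373.5 the means were 5.14, 5.51 and 4.68 at 0, 1 and 2 h (step -0.83), for Y39B6A.41 4.0, 4.13 and 3.52 (step -0.61) and for chup-1, a gene of the SID-1 family linked to cholesterol uptake, 5.53, 5.72 and 4.85 (step -0.86). The 2 h arrays of Y39B6A.41 lay under the lower quartile, so its step is uncertain in size. In chup-1 and ZC373.5 the pooled differences of -0.25 and -0.05 average a higher 1 h mean and a lower 2 h mean. In lys-7, clec-222 and btb-3, by contrast, the 1 h and 2 h means were close to each other.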

How the data were processed

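Total RNA of whole animals was hybridised to Affymetrix arrays. The authors deposited 1 log2 signal per probe set and array, made by RMA per the submitters' processing notes. Base 2 is inferred, since RMA gives it and the values run from 1.52 to 14.4. The settings of RMA, any filter and the genome build were not given in the sources, and no coordinates are printed. The distributions of the arrays were nearly the same, with sorted values within 0.0989 of their mean. Scanner files were not used, so signal over background was not assessed, and the number of arrays limits the precision.

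By the platform annotation, 20766 of 22548 probe sets have 1 symbol, 887 have several and 895 are unnamed here. Of the 20766, 20701 matched the WBcel235 gene table, with 0 symbols changed. Of 17118 genes, 2981 had more than 1 probe set.

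A model with 2 groups (4 arrays at 0 h, 4 at 1 h and 2 h) was fitted to all 22548 probe sets by lmFit and eBayes at default settings (limma 3.58.1, R 4.3.3). The two-sided p-values took a Benjamini-Hochberg adjustment over all probe sets and a threshold of 0.05. An alternative fit gave each time its own mean and tested the average of the 1 h and 2 h differences from 0 h. Other alternatives left out arrays, centred or quantile-normalized again, used array weights or all 12 arrays, or dropped dim or cross-hybridising probe sets. Probe sets with names ending in _s_at or _x_at were treated as cross-hybridising. Some named genes rest on them, among them lys-7, cpr-3, E01G4.3 and hsp-70. The fits were tested on simulated data. The members and the gene lists were chosen with earlier results of these data known. Genes named by rule are the 5 with the smallest p in each direction, the smallest p of each list, 5 in each direction for 2 h against 1 h, and a fixed set. Arrays of 0 h with the same replicate number as a 1 h or 2 h array did not deviate together (r = -0.075 to 0.00773). Numbers were not taken as pairs in the main fits. Same-numbered 1 h and 2 h arrays correlated at 0.185 and were still fitted as independent. With 2 arrays a time the deviations from their mean are mirror images, so these correlations are a weak check of pairing.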

Additional observations from a re-analysis of the deposited data

Results flagged for a closer look

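In 17 of 318 groups of 4 arrays tested among the named genes, 1 array stood apart from the other 3 by Dixon's criterion, and chance gives about 1 in 20. Among 0 h arrays these were replicate 1 for gcy-8 (3.76) and Y43C5A.4 (5.15), replicate 2 for ttr-29 (4.05), hsp-90 (13.1), chil-23 (3.84) and nlp-12 (7.19), replicate 3 for dnj-12 (11.4) and mtl-2 (8.53), and replicate 4 for smd-1 (8.34). Among early arrays, replicate 1 at 1 h stood apart for ucr-2.3 (10.3), hlh-30 (8.78) and fbxa-162 (4.88), and replicate 2 at 1 h for F31D4.8 (6.94). At 2 h it was replicate 1 for avr-14 (5.41) and dhs-7 (5.42) and replicate 2 for hsp-60 (11.5) and C15H9.11 (7.59). The early groups mix 1 h and 2 h, so an array can stand apart by its time.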

How the results depend on the processing

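Over 164 values of single genes, each under at most 22 other settings (14 for steps from 1 h to 2 h), 3086 of 3416 values kept their direction and their side of the threshold, 300 passed where the value as reported did not, and 30 changed sign. The 300 were mostly with 1 mean per time (63), with the 2 h arrays alone (67) and without replicate 1 at 1 h (59). The 4 h arrays were used only in the fit with all 12 arrays.

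Probe sets called higher and lower in the pooled comparison (0 and 0) were 44 and 26 with 1 mean per time, 30 and 14 with all 12 arrays, 35 and 13 with a trended and robust prior, 20 and 13 with array weights, 9 and 4 without the dimmer 50% of probe sets, 91 and 48 with the 2 h arrays alone, and 1 and 0 with replicates 1 and 2 alone at 0 h. Leaving out single arrays gave 0 to 113 higher and 0 to 30 lower. The 1 h arrays alone, centring, quantile normalization, adjustment over single-symbol probe sets, leaving out cross-hybridising probe sets and a 1.5-fold minimum gave 0. With the replicate number as a block, 0 were called higher and 0 lower, and same-numbered 1 h and 2 h arrays correlated at 0.185, which does not come from the labels. For 2 h against 1 h, leaving out single arrays gave 0 to 9 calls and the other settings 0. Centring moved the share of higher among probe sets with an unadjusted p under 0.05 from 56.3% to 40.3% (968 higher, 1435 lower).

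For the fit with 1 mean per time, settings chosen after seeing the data gave 93 higher and 43 lower with all 12 arrays, 114 and 44 with a trended and robust prior, 40 and 32 after centring, 39 and 29 after quantile normalization, 73 and 28 without dimmer probe sets, and 0 and 0 with the replicate block.

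Signs changed for 7 genes, all with small differences. With the replicate block or with replicates 1 and 2 alone at 0 h, gcy-23 was at 0.022, gcy-8 at 0.0024, hsp-16.2 at 0.096, hsp-16.41 at 0.084 and paqr-2 at 0.041. With the 1 h arrays alone gcy-23 was at 0.086, gcy-8 at 0.0045 and hsp-16.41 at 0.14, and with the 2 h arrays alone tax-4 was at 0.016 and mtl-1 at -0.016. Array weights put mtl-1 at -0.047 and gcy-23 at 0.078. Over the fits that left out 1 array, gcy-23 ran from -0.11 to 0.14, gcy-8 from -0.062 to 0.019, hsp-16.41 from -0.20 to 0.086, mtl-1 from -0.019 to 0.17, paqr-2 from -0.088 to 0.0077 and tax-4 from -0.062 to 0.030. The cause of these changes was not tested.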

Other observations

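Of the 63 genes called with 1 mean per time, 29 (46.0%) lie on chromosome V, which holds 25.3% of the measured genes. This count was made after the calls were seen and has no test. A few called genes are near another called gene, as the pairs smd-1 and gpdh-1 (5 coding genes between them) and F31F7.1 and cest-24 (7 between them) show. How often genes taken at random lie as near was not counted, so no clustering can be read from these pairs. The gene F31F7.1 fell in that fit, with means of 8.89, 8.41 and 7.86 at 0, 1 and 2 h and a difference of -0.75, SE 0.14 (adjusted p = 0.0138, and 0.12 pooled).

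C06B3.7 and clik-2 had early arrays that all lay above the 0 h arrays but did not pass in either fit. C06B3.7 had 4.28, 4.60, 4.67 and 4.61 at 0 h, 4.78 and 5.46 at 1 h and 5.77 and 7.32 at 2 h, a difference of 1.29 (SE 0.40) that rests largely on replicate 2 at 2 h, with means of 5.12 at 1 h and 6.55 at 2 h. The gene clik-2 had 6.40, 6.24, 5.65 and 6.12 at 0 h, 6.55 and 7.35 at 1 h and 7.28 and 7.08 at 2 h, a difference of 0.96 (SE 0.19) with means of 6.95 at 1 h and 7.18 at 2 h (adjusted p = 0.12 and 0.0708), and its second probe set differed by 0.20.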
